A study of Mus musculus with 3 samples.

Results

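Cell cycle genes were followed in embryonic mouse kidneys grown in culture with serum, without serum, or without serum but with retinoic acid. The 34 genes were chosen by name, 16 for the synthesis of DNA (S phase members) and 18 for mitosis (mitosis members). Each was represented by its probe set with exactly 1 gene symbol and, where there were several, by the one with the highest mean. In this way 33 of the 34 had a value, among 19938 genes in all. Ccnb1 was not analysed here, which left 17 mitosis members. All 33 were at or above the floor on every array, the floor being the median of all gene-level values (log2 7.12, an intensity of 140).

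The kidneys came from C57BL/6 embryos at embryonic day 11.5 and were kept on filters for 48 h. The serum group had DMEM with 10% fetal bovine serum, the serum-free group had DMEM alone, and the retinoic acid group had DMEM without serum to which retinoic acid, a signalling form of vitamin A, was added. No group carried an engineered allele, as far as the labels say. The labels do not state the dose of retinoic acid, the number of kidneys behind each RNA and the sex of the embryos. Each medium was measured on 1 Affymetrix Mouse Gene 1.0 ST array, 3 arrays in all, so differences carry neither an error nor a test, and the number of arrays limits the precision. Values are deposited intensities on a linear scale or their log2, and differences are on the log2 scale. The arrays' median intensity lay between 81.5 and 85.5.

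Cells copy their DNA in S phase and divide it in mitosis, and the genes for these steps are transcribed in successive waves. Before S phase the MCM helicase is loaded on DNA with the help of Cdc6 and Cdt1, and E2F transcription factors together with cyclin E switch on the replication genes. Later, genes for cyclins A and B, the mitotic kinases and the spindle are transcribed as cells approach division, through promoters that often hold CCAAT boxes and a cell cycle homology region (CHR). In the kidney rudiment, dividing cells are found in the tips of the branching ureteric bud, in the nephron progenitors around them and in the stroma. RNA levels of a whole explant cannot tell apart fewer cells in a phase and less RNA per cell.

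Promoter sequences describe the S phase and mitosis members without the array values. The motifs searched are ones already known for such genes, so a difference between the groups is a description and no separate result. RefSeq promoters (build GRCm38.p6), each 250 bases before to 50 after a gene's start, matched 27 of the 33 measured members, 14 S phase and 13 mitosis members. Mcm4, Ccne2, Ccna2, Aurkb, Kif20a and Tpx2 had no entry that could be used here, and Mcm7 had 2 starts, which were counted as 1 gene. They were searched on both strands for TTTCCCGC or TTTGGCGC (E2F letters), TTTGAA (CHR letters) and CCAAT, and no matches to different motifs overlapped in these promoters. E2F letters were in 6 of the 14 S phase members (42.9%), 0 of the 13 mitosis members and 1.80% of 27025 genes in the promoter table. CHR letters were in 10 of the 13 mitosis members (76.9%), 2 of the 14 S phase members (14.3%) and 20.2% of all genes. CHR letters together with CCAAT were in 10 mitosis members and 2 S phase members, against 7.97% of all genes. CCAAT, with or without CHR letters, was in 92.3% of the mitosis members, 64.3% of the S phase members and 41.1% of all genes. A match is a description of letters, not of a bound site. Only the windows at these annotated starts were searched, so a gene without a match may hold one elsewhere.

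The S phase promoters printed are those of Mcm3 and Mcm6, which carry 2 E2F matches each, and of Cdt1, with 1 match. The mitosis promoters are those of Cdk1, Ccnb2, Cdc20 and Kif11, which carry CHR and CCAAT letters, and of Bub1, the member with the largest difference between media, which has CCAAT but no CHR letters in this window. Capitals mark E2F, CHR and CCAAT letters on either strand, and each sequence runs 5′ to 3′ on the gene's own strand.
Mcm3, chr1:20820263-20820562, minus strand: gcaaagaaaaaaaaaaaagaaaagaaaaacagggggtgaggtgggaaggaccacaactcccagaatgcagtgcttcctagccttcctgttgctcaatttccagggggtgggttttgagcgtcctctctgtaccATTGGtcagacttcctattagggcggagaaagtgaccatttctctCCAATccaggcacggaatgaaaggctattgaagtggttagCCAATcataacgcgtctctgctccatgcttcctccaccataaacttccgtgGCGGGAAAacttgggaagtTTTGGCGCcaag
Mcm6, chr1:128359656-128359955, minus strand: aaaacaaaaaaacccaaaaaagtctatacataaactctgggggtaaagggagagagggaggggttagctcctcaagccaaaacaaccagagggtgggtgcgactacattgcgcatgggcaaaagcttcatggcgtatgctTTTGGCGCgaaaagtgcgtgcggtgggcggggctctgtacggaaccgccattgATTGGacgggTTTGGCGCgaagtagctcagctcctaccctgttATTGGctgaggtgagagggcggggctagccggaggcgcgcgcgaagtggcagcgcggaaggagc
Cdt1, chr8:122567765-122568064, plus strand: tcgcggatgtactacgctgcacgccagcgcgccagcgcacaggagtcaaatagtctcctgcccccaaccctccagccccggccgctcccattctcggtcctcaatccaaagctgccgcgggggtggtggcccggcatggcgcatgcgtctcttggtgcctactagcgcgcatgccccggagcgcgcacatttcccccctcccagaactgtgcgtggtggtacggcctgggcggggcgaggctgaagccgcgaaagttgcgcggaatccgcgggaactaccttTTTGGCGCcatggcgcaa
Cdk1, chr10:69352863-69353162, minus strand: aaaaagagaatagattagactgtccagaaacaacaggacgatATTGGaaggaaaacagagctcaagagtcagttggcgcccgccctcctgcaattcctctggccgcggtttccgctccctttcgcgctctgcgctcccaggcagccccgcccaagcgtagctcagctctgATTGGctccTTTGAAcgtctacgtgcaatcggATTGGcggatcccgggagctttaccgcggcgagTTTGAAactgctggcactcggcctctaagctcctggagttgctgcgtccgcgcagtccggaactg
Ccnb2, chr9:70421505-70421804, minus strand: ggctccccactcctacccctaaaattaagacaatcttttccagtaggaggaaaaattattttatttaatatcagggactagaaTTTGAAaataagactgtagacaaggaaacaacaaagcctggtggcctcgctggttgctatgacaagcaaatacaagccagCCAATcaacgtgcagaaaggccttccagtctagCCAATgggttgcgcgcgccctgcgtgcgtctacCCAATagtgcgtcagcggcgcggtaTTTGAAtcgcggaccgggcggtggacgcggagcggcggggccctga
Cdc20, chr4:118437294-118437593, minus strand: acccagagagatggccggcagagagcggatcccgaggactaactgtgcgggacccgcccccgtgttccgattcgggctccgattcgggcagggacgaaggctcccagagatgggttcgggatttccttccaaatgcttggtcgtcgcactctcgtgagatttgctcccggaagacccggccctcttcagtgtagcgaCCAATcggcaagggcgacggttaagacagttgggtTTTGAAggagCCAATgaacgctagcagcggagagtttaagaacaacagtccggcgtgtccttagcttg
Kif11, chr19:37376132-37376431, plus strand: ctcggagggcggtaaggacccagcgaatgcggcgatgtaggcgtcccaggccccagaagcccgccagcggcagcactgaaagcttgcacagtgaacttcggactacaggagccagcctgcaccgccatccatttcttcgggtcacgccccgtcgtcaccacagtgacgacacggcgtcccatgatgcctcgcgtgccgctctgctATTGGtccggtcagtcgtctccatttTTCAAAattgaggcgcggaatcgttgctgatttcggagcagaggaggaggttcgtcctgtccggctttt
Bub1, chr2:127831810-127832109, minus strand: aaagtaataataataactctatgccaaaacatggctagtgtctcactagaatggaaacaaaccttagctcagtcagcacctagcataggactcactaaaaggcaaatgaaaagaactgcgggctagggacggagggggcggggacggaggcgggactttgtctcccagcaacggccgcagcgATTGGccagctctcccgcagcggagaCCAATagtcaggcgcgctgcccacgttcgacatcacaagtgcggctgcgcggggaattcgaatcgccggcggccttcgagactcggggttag
In Mcm6 the E2F letters begin 110 and 47 bases before the start, and in Cdk1 the CHR letters begin 71 and 15 bases before it. In Cdc20 and Kif11 the CHR letters begin 18 and 19 bases before the start.

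The first comparison set serum-free against serum medium and asked how the cell cycle genes stood once serum was left out. All 17 mitosis members were lower without serum, with a median difference of -0.22 (1.17-fold) and a range from -0.43 to -0.02, although Mki67 at -0.02 came out above 0 when the arrays were scaled in 3 other ways. The 16 S phase members had a median of -0.01, with 9 lower, 7 equal within 0.005 and 0 higher. That median lay between 0.01 and 0.04 under the 3 other scalings, with 5 or 6 lower and 9 to 11 higher, so it has no settled sign. The median of all genes at or above the floor moved in the same direction, from -0.004 as deposited to between 0.006 and 0.05. Of the 7709 genes whose mean log2 level lay in the members' range (7.94 to 12.16), called genes of like level, 52.0% were lower by 0.005 or more, 30.1% equal and 17.9% higher, and their median was -0.01. Shares over all genes or genes of like level were not counted under the other scalings, here or below. The S phase median was 0.21 above the mitosis median, and it was between 0.20 and 0.21 above it under the other scalings. The part that equal values, 7 of 16 S phase and 0 of 17 mitosis members, have in this gap was not tested.

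**Figure D1:**
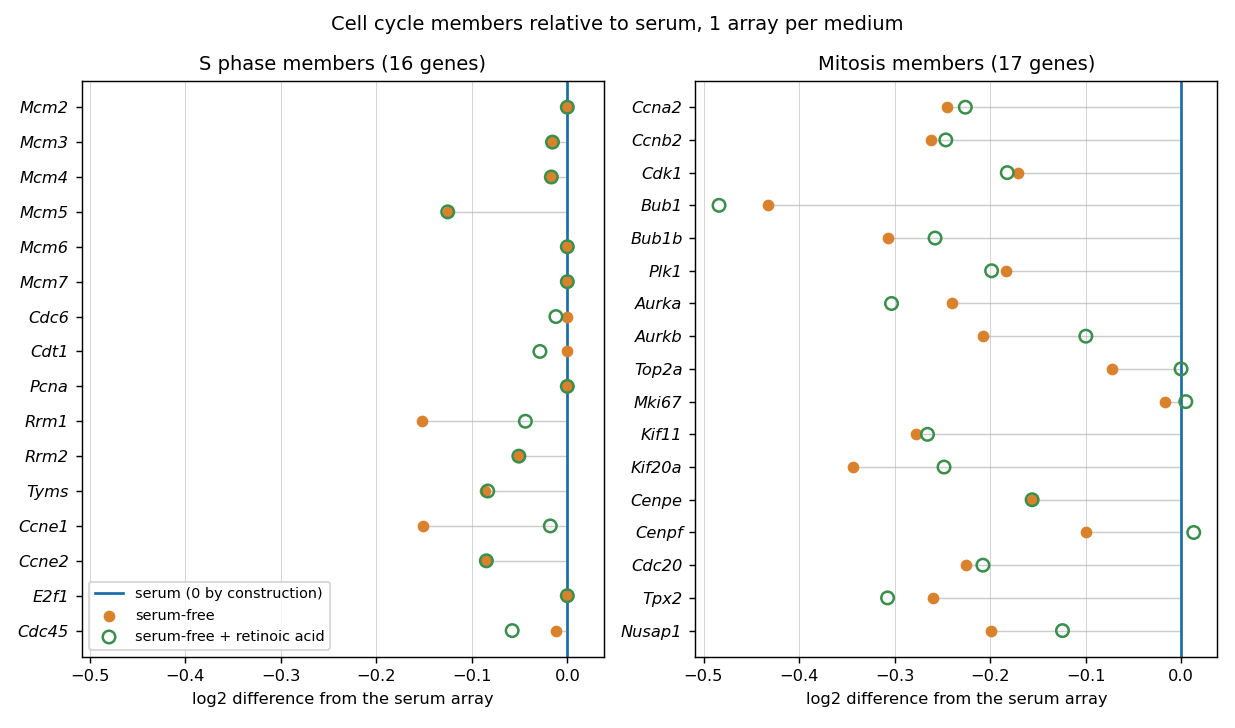
Log2 difference of each member from the serum array (x axis) in serum-free medium (filled) and with retinoic acid (open), 1 array per medium, S phase members left and mitosis members right. S phase members lie between -0.15 and 0.00, and mitosis members between -0.48 and 0.01.

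At least 1.2-fold lower without serum were 4 of 17 mitosis members (23.5%) and 0 of 16 S phase members, against 9.03% of all genes at or above the floor and 8.33% of the genes of like level. At least 1.2-fold higher were 0 members, against 5.10% of all genes. The number of members that differed 2-fold either way was 0, and 1.58% of all genes did. The 4 were Bub1, Kif20a, Bub1b and Kif11, while Ccnb2 at -0.26 and Tpx2 at -0.26 lay just inside the limit of 0.263. The count therefore hangs on small steps, and it was 2 with each array centred on its median and 3 with the other scalings. As a yardstick of measurement spread, 592 genes had several probe sets at or above the floor, and these disagreed on this difference by a median of 0.05, with a 95th percentile of 0.29. Of the mitosis members 3 (Bub1, Kif20a and Bub1b) and of the S phase members 0 lay beyond that percentile, which does not cover the spread between explants.

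**Figure D2:**
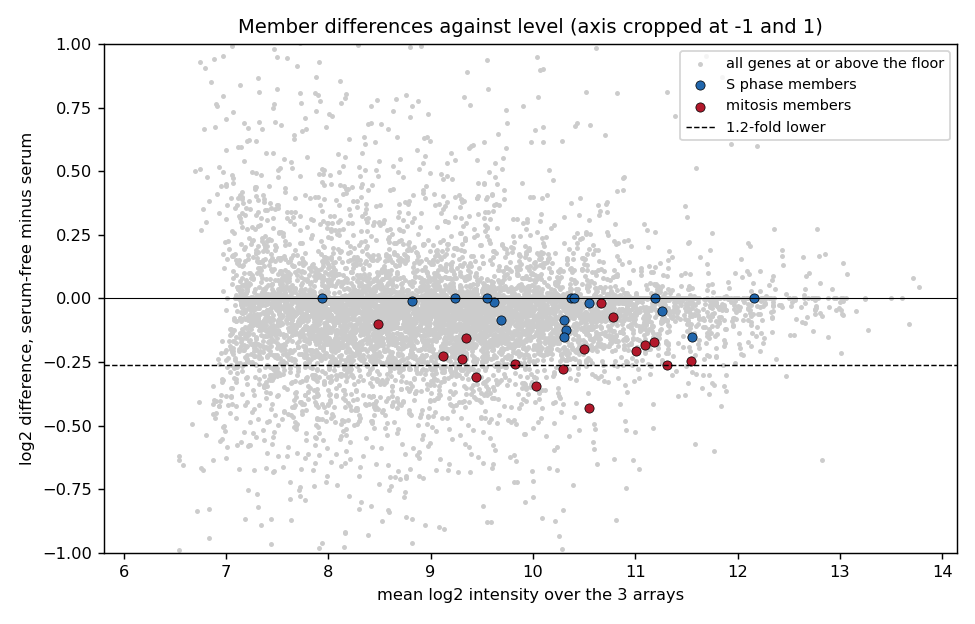
Difference of serum-free minus serum (y axis, log2, cropped at -1 and 1) against the mean log2 intensity over the 3 arrays (x axis), 1 point per gene. Mitosis members (red) lie from -0.43 to -0.02 at levels shared with the S phase members (blue, -0.15 to 0.00), among all genes at or above the floor (grey).

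Among the licensing genes, most values were alike on the serum and serum-free arrays. The MCM helicase subunits Mcm2, Mcm6 and Mcm7 had intensities of 1321, 1350 and 2336 in turn, each the same on all 3 arrays. Mcm3 was at 790 in serum and 782 on both serum-free arrays, and Mcm4 at 1506 and 1489. The helicase subunit with the largest difference was Mcm5, at 1357 in serum and 1244 on both other arrays (-0.13). Equal values are common after the authors' RMA summary, in which 2 arrays often receive the same number, so they do not measure equal expression.

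Cdc6 and Cdt1, which load the helicase, were at 246 and 753 in both serum and serum-free medium, and at 244 and 738 with retinoic acid. Cdc45, which travels with the active helicase, was at 458 in serum, 454 without serum and 440 with retinoic acid. The sliding clamp gene Pcna was at 4573 on every array, and its second probe set (log2 12.03) was also equal on all 3. E2f1, the transcription factor gene of the G1 to S transition, was at 604 throughout. The values of these genes were tied or differed by at most 0.06 on the log2 scale, and the ties again do not measure equal expression.

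Genes that make nucleotides and cyclin E include the S phase members furthest from serum in serum-free medium, Rrm1 and Ccne1. Rrm1, the large subunit of ribonucleotide reductase, was at 3140 in serum, 2825 without serum and 3046 with retinoic acid, a difference of -0.15 without serum. Ccne1, a cyclin E gene, was at 1311, 1181 and 1295 in the same order, also -0.15 without serum. In both genes the retinoic acid array lay between the others and closer to serum, except that with each array centred it lay above serum in both (by 0.01 for Rrm1 and 0.04 for Ccne1), and for Ccne1 it did so under the other scalings too.

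Rrm2, the small subunit of the reductase, was at 2509 in serum and 2423 on both serum-free arrays. Tyms, which encodes thymidylate synthase, was at 1316 in serum, 1240 without serum and 1242 with retinoic acid. Ccne2, the other cyclin E gene, was at 859 in serum and 810 on both serum-free arrays. In these 3 genes retinoic acid and serum-free values were alike and the serum value was higher by 0.05 to 0.09, except that Rrm2 without serum lay 0.01 above serum with each array centred.

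Among the checkpoint and anaphase genes was Bub1, the mitosis member furthest from serum. Bub1, a kinase of the spindle assembly checkpoint, was at 1852 in serum, 1372 without serum and 1324 with retinoic acid, a difference of -0.43 (1.35-fold) without serum. Its checkpoint partner Bub1b was at 793, 641 and 663 in the same order (-0.31), and Cdc20, an activator of the anaphase-promoting complex, at 615, 526 and 533 (-0.22). In all 3 genes both arrays without serum lay below the serum array.

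The cyclins and their kinase were also lower without serum. Ccna2, which encodes cyclin A2, was at 3335 in serum, 2814 without serum and 2852 with retinoic acid (-0.25 without serum). The cyclin B2 gene Ccnb2 was at 2849, 2376 and 2402 (-0.26), and Cdk1, the kinase that these cyclins activate, at 2525, 2244 and 2226 (-0.17). The values on both arrays without serum were close to each other in each of these genes.

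The mitotic kinase genes gave differences of the same order. Plk1, which acts on centrosomes and at the entry into mitosis, was at 2389 in serum, 2104 without serum and 2082 with retinoic acid (-0.18). Aurka, a kinase of the spindle poles, was at 716, 606 and 580 (-0.24), and Aurkb, a kinase of the chromosomal passenger complex, at 2205, 1910 and 2058 (-0.21). With retinoic acid, Aurka lay below and Aurkb above its serum-free value.

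Among spindle and kinetochore genes, Kif20a, a kinesin of the late spindle, was at 1200 in serum, 946 without serum and 1010 with retinoic acid (-0.34). Kif11, a kinesin that pushes spindle poles apart, was at 1422, 1173 and 1183 (-0.28), and Tpx2, which activates Aurora A on the spindle, at 1037, 866 and 838 (-0.26). In these 3 genes both arrays without serum lay below the serum array.

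Nusap1, a spindle microtubule protein, was at 1562 in serum, 1360 without serum and 1433 with retinoic acid (-0.20). Cenpe, a kinetochore motor, was at 700 in serum and 629 on both other arrays (-0.16), and Cenpf, another kinetochore protein, at 365, 341 and 369 (-0.10). For Cenpf the retinoic acid value lay 0.01 above serum.

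Top2a and Mki67, which act on chromosomes and are widely used as proliferation markers, stood nearest to serum. Top2a, the topoisomerase that untangles DNA, was at 1787 in serum, 1700 without serum and 1787 with retinoic acid (-0.07). Mki67, the Ki-67 gene, was at 1625, 1606 and 1630 (-0.02). A further Top2a probe set lay far below the floor (log2 3.09 in serum) and was not used. Both carry CHR and CCAAT letters in their promoters, as does Cenpf, while Bub1 lacks CHR letters. Over mitosis members with a promoter, the median difference was -0.20 for the 10 with CHR letters and -0.20 for the 3 without.

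The second comparison set retinoic acid against no addition, both without serum, to ask how the members stood when retinoic acid was present. Of all 33 members 0 were 1.2-fold lower or higher, where 6.80% and 5.80% of all genes at or above the floor were. The S phase members had a median of 0.00, with 3 lower, 11 equal within 0.005 and 2 higher, and ranged from -0.05 to 0.13. The 17 mitosis members had a median of 0.02, with 11 higher, 5 lower and 1 equal, and ranged from -0.06 to 0.11. Among genes of like level 29.1% were higher by 0.005 or more, 34.8% lower and 36.1% equal. The largest values were 0.13 for Ccne1 and 0.11 each for Cenpf, Rrm1 and Aurkb. All members lay within the 95th percentile of probe set disagreement, which was 0.29 here.

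The third comparison set retinoic acid without serum against serum. The mitosis members had a median of -0.21 (1.15-fold), with 14 of 17 lower, 2 equal and 1 higher, and the S phase members a median of -0.02, with 11 of 16 lower, 5 equal and 0 higher. Under the other scalings the S phase median was between 0.01 and 0.04, with 3 to 6 lower and 10 to 12 higher. The median of all genes at or above the floor was then between 0.002 and 0.05, after -0.005 as deposited. Among genes of like level 51.7% were lower, 28.0% equal and 20.3% higher. At least 1.2-fold lower were 4 of 17 mitosis members and 0 of 16 S phase members, against 12.0% of all genes, and 0 members were 1.2-fold higher, against 6.37%. The 4 were Bub1 at -0.48, Tpx2 at -0.31, Aurka at -0.30 and Kif11 at -0.27, and their number was 1 with each array centred. Of all members only Bub1 lay beyond the 95th percentile of probe set disagreement, which was 0.34 here. Top2a, Mki67 and Cenpf had differences of 0.00 to 0.01 from serum, and with each array centred they lay 0.06 to 0.07 above it. The 3 comparisons share arrays, so their values are not independent of each other.

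In the order of the media, serum was highest by 0.005 or more in 14 of 17 mitosis members and 9 of 16 S phase members, against 40.0% of all genes at or above the floor. The S phase count hangs on the scaling. With each array centred, 3 S phase members were lower with retinoic acid than in serum, so serum was highest in at most 3. The retinoic acid value lay between serum-free and serum in 8 mitosis members and below both in 5, namely Cdk1, Bub1, Plk1, Aurka and Tpx2. Some of these steps from serum-free were small, such as -0.01 for Cdk1 and Plk1 and 0.01 for Kif11. The same orders were not counted over all genes. Among genes of like level 34.8% were lower with retinoic acid than serum-free and 29.1% higher. Among S phase members 5 were equal on all 3 arrays, as were 22.8% of all genes, and 0 of the mitosis members were. Summed over the 17 mitosis members, intensity was 26976 in serum, 23213 without serum and 23598 with retinoic acid. Over the 16 S phase members it was 24429, 23630 and 23936.

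**Figure D3:**
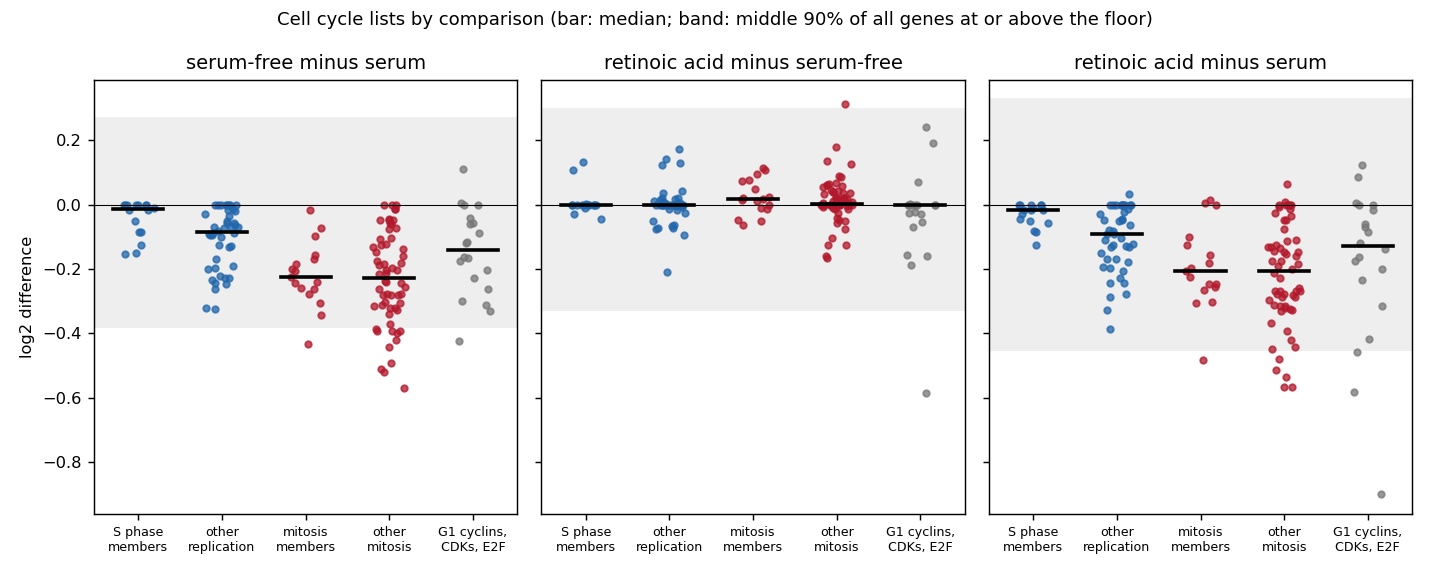
Log2 differences (y axis) of the members and of 3 further cell cycle lists in each comparison, 1 point per gene at or above the floor, with the median as a bar and the middle 90% of all genes as a band. Mitosis members and other mitosis genes centre on -0.22 and -0.23 in serum-free minus serum, and on 0.02 and 0.00 in retinoic acid minus serum-free.

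Further mitosis genes, on a list of 60 measured genes that holds none of the members, gave a like picture for serum-free against serum. The list was read on the same arrays and chosen with earlier results of these data known, so it is no separate test. Its median was -0.23, with 57 lower, 3 equal and 0 higher, where 52.0% of genes of like level were lower. Of the 60, 26 were at least 1.2-fold lower (43.3%, against 9.03% of all genes). With the other scalings 49 to 55 were lower and 16 to 21 were at least 1.2-fold lower. Sgo1, which protects centromere cohesion, was at 616 in serum, 415 without serum and 515 with retinoic acid (-0.57 and 0.31 in the first and second comparison). Cep55, an abscission gene, was at 356, 248 and 255 (-0.52), and Cenpa, the centromeric histone gene, at 1296, 910 and 908 (-0.51). Melk, a kinase gene of proliferating cells, was at 572, 433 and 386, and the kinetochore gene Cenpk at 300, 264 and 298. With retinoic acid against serum-free the list had a median of 0.00. Sgo1 was its only gene at least 1.2-fold higher (1.67%, against 5.80% of all genes).

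Further replication genes, 44 at or above the floor of 45 measured, had a median of -0.09 without serum. Of these, 36 were lower, 8 equal and 0 higher, where 52.0% of genes of like level were lower. With each array centred the replication genes had a median of -0.03, with 28 lower, 3 equal and 13 higher. At least 1.2-fold lower were 3 of them (6.82%, against 9.03% of all genes). They were Pole2, a subunit of DNA polymerase epsilon, at 614 in serum and 491 without (-0.32), Dbf4, the activator of the Cdc7 kinase, at 973 and 779 (-0.32), and Mcm10, a replication initiation factor, at 485 and 404 (-0.26). With retinoic acid Dbf4 was at 877 and Tipin, a replication fork protein gene, at 730, after 662 without and 785 in serum. Fen1, the flap nuclease gene, was at 303 in serum, 289 without serum and 250 with retinoic acid.

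**Figure D4:**
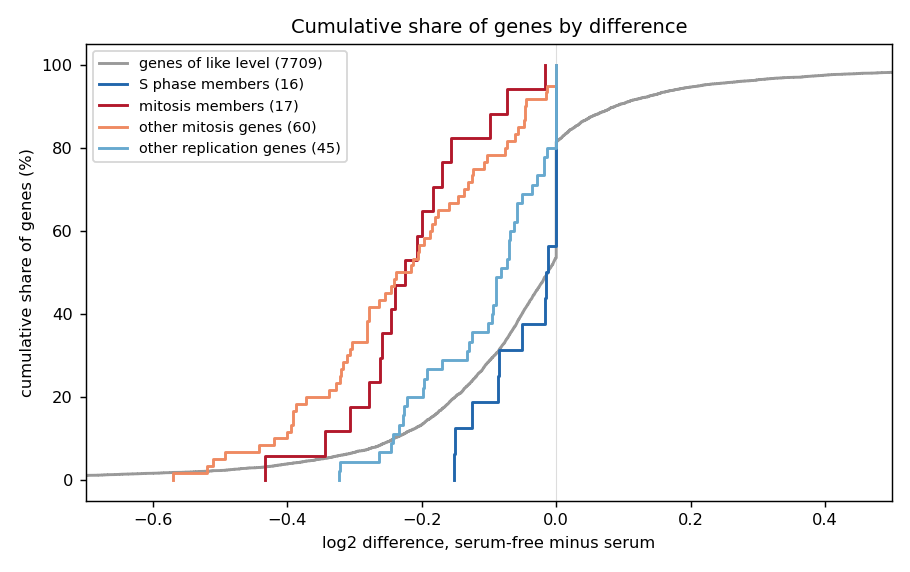
Cumulative share of genes (y axis, percent) by their log2 difference of serum-free minus serum (x axis) for S phase members, mitosis members, further replication and mitosis genes and all genes of like level. Both mitosis curves lie left of the curve for the 7709 genes of like level over most of its lower part, and the S phase members reach no further than -0.15.

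Upstream of these genes, a list of 20 G1 cyclins, CDKs, pocket proteins, E2F and MYC genes had a median of -0.14 without serum, with 16 lower, 2 equal and 2 higher, and 4 at least 1.2-fold lower (20.0%, against 9.03% of all genes, while 52.0% of genes of like level were lower). With each array centred 14 were lower, 5 higher and 2 at least 1.2-fold lower. Ccnd1, the cyclin D1 gene that links growth signals to the cell cycle, was at 4607 in serum, 3438 without serum and 3077 with retinoic acid (-0.42 without serum). The growth regulator Myc was at 2406, 1938 and 1290, a difference of -0.31 without serum and of -0.59 with retinoic acid against serum-free. Mycn, its relative in embryonic progenitors, was at 907, 722 and 823 (-0.33 and 0.19). Cdk6, a partner of cyclin D, was at 665, 613 and 724 (0.24 with retinoic acid against serum-free). The list had a median of 0.00 with retinoic acid against serum-free. Myc was its only gene at least 1.2-fold lower there (1 of 20, against 6.80% of all genes).

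Of 8 CDK inhibitor genes 7 were measured and 3 were at or above the floor in that comparison. Cdkn1c, an inhibitor of G1 CDKs, was at 2040 in serum, 2132 without serum and 1751 with retinoic acid (-0.28 with retinoic acid against serum-free). Cdkn1b was at 871 in serum and 850 on both other arrays, and Cdkn3, a phosphatase gene that acts on CDKs, at 238 and 212. None of the 3 was 1.2-fold apart between serum and serum-free medium, where 9.03% of all genes were that much lower and 5.10% higher. With retinoic acid against serum-free, Cdkn1c was at least 1.2-fold lower (1 of 3, against 6.80% of all genes). The probe set of Cdkn1a carries a further gene symbol and was left out.

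Marker genes of the cell types in an explant also differed between the arrays. The kidney markers Six2, Foxd1 and Ret were above the floor on every array. Without serum 49.7% of all genes at or above the floor were lower than in serum and 18.8% higher. In that comparison 17 of 18 macrophage markers were higher, and 13 of the 13 at or above the floor. Their summed intensity was 3918 in serum, 10879 without serum and 8031 with retinoic acid, over all 18. Of 12 endothelial markers 11 were higher without serum, against 18.8% of all genes, with sums of 8640, 11821 and 10158. Of 12 ureteric bud markers 11 were lower without serum, against 49.7% of all genes, with sums of 12811, 8196 and 12524. Gene by gene, the median difference of these 12 from serum was -0.36 without serum and -0.07 with retinoic acid. With retinoic acid 8 of them were lower than in serum and 3 higher, against 50.1% and 20.5% of all genes. Of 12 stroma and smooth muscle markers 10 were lower without serum (9 of the 11 at or above the floor), against 49.7% of all genes. Their sums were 16374, 10564 and 9973. Of 12 nephron progenitor markers 6 were lower and 6 higher without serum, against 49.7% and 18.8% of all genes. Their sums were 14683, 16308 and 12435. Xist, an RNA of female cells, was at log2 10.84, 11.48 and 9.79, and the Y-linked gene Eif2s3y at 8.38, 7.46 and 8.64, so these sex-specific RNAs ran in opposite orders. The part of these differences in the values of the members was not tested.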

How the data were processed

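Total RNA (250 ng) was labelled and hybridised to 1 array per medium, per the labels' protocols. The authors deposited linear intensities per probe set, made with Affymetrix Expression Console 1.1 and RMA, per the submitters' processing notes, which do not state the settings. The log2 was taken with no pseudocount. Of 35556 probe sets, 21789 had exactly 1 symbol in the platform annotation, which gave 19938 genes, and in the lists 2 older symbols were updated through RefSeq synonyms. With 1 array per medium, differences were counted by direction (0.005 or more on the log2 scale) and by size (at least 1.2-fold or 2-fold, where the higher of the values reached the floor), with no test. Scripts ran in Python 3.11.15 and R 4.3.3 with limma 3.58.1 and were tested on simulated data. Members, lists, motifs, fold sizes and alternatives were chosen with earlier results of these data known. Named genes were all members and, per further list, the 3 largest absolute differences in the first and in the second comparison. The alternatives were 3 other scalings, a pseudocount, other probe set choices, other floors and other folds.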

Additional observations from a re-analysis of the deposited data

How the results depend on the processing

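The medians of both member groups and the gap between them moved by less than 0.1 under every alternative run, and the folds do not enter them. That limit is wider than the S phase medians themselves. Without serum the S phase median changed sign, from -0.01 to between 0.01 and 0.04 under the 3 other scalings. The counts of small differences moved more. With each array centred on its median, 5 S phase members were lower without serum and 3 with retinoic acid against serum, and the mitosis members at least 1.2-fold lower numbered 2 and 1. Cyclic loess gave 6 S phase members lower with retinoic acid against serum. Quantile normalization gave 6 as well, 5 with retinoic acid against serum-free, and 2 mitosis members at least 1.2-fold lower against serum. With the floor at the 75th percentile, 1 S phase member was lower with retinoic acid against serum-free. At 1.1-fold, 14 of 17 mitosis and 2 of 16 S phase members were lower without serum (21.8% of all genes at or above the floor), and 12 mitosis members with retinoic acid against serum (25.3%). At 1.3-fold, 1 mitosis member was lower in each of these comparisons (5.06% and 6.63% of all genes). The causes were not tested, apart from the folds and the floor, which set the counts by construction. A pseudocount of 32, other probe set choices and no floor moved none of these counts by over 1.5 times. No paired analysis was possible because each medium had 1 array, and for the same reason no replicate could be left out.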
